A study of Rattus norvegicus with 9 samples.

Results

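The genes described here are the 9 that carry ammonia through the liver: the urea cycle enzymes Cps1, Otc, Ass1, Asl and Arg1, the activator synthase Nags, the ornithine carrier Slc25a15, and the ammonia-handling enzymes Gls2 and Glud1. They were chosen by name, with earlier results of these data known. They are 9 of the 14377 genes that the arrays read with a single symbol, represented by 17 of 31042 probe sets. RNA from the livers of 9 male Sprague-Dawley rats was hybridized to Affymetrix GeneChip rat genome arrays, 1 array per rat. The vehicle group (rats 3, 4 and 5) was the control. The CCl4 group (rats 1, 2 and 3) received carbon tetrachloride in olive oil by intraperitoneal injection for 8 weeks to induce fibrosis, and the CCl4+Rot group (rats 4, 5 and 6) received the same CCl4 and also rottlerin, an activator of BK potassium channels, at 2.5 mg/kg body weight from 2 weeks after the first CCl4 injection. What the vehicle rats were injected with and the age of the rats are not given in the sources used here. All values are log2 signals, so equal differences are equal ratios. A signal depends on the probes as well as on the transcript, and the levels of different genes were therefore not compared with each other.

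Urea is made in periportal hepatocytes, the liver cells that blood from the gut reaches first. Ammonia that is released from glutamine by glutaminase, or from glutamate by glutamate dehydrogenase, is fixed in mitochondria as carbamoyl phosphate and joined to ornithine. The product then passes in the cytosol through argininosuccinate and arginine to urea and ornithine, and ornithine is carried back into the mitochondrion. Ammonia that escapes this zone is taken up by a rim of pericentral hepatocytes and fixed as glutamine.

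The promoters of 3 members are shown because Cps1 is the entry step of the cycle, and Otc and Gls2 had the smallest p of the 9 genes between CCl4 and vehicle. RefSeq sequences of build GRCr8 were available for 8 of the 9 genes, and Arg1 had none. For description, 3 motifs were searched on both strands of the 250 bases before each start, namely CAAAGTCCA for HNF4, TTGCNNAA for C/EBP and CCAAT for the CCAAT box. The sequences run 5′ to 3′ along the strand of the gene, and bases inside the annotated gene were left out. Capitals mark the HNF4 match, which lies on the opposite strand.
Cps1 (chr9:76063613-76063862, plus strand): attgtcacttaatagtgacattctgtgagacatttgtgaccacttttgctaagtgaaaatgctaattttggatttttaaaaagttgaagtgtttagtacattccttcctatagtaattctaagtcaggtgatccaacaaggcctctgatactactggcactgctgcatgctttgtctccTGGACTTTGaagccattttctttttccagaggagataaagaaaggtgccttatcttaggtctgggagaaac
Otc (chrX:15202474-15202723, minus strand): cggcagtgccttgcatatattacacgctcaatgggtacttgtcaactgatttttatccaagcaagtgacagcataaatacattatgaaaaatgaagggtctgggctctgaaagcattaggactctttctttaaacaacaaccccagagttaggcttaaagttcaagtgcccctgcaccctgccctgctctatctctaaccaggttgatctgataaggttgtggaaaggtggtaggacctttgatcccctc
Gls2 (chr7:1201629-1201756, plus strand): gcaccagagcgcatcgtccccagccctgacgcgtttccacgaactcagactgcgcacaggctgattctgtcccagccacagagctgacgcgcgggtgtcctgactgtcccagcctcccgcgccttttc
The Cps1 match lies 71 bases before the start, and this motif was found in 0.338% of all 33469 promoter windows of that length. CCAAT was matched for Gls2, 93 bases before the first of its 2 starts, in the stretch not printed. The Gls2 sequence shown belongs to that first start, and the window of the second start held no match. CCAAT was also matched for Slc25a15, 209 bases before its start, and it was found in 34% of all windows. TTGCNNAA was found in 9.22% of all windows and in none of the members' windows. The promoters of 5 members held no match. These are matches of letters only.

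Liver identity was clear from the 8 hepatocyte markers measured, which were called present on every array, with a mean log2 signal between 14.27 and 14.87. The array of CCl4 rat 3 stood apart from the others. It had 12714 probe sets called present against 15550 to 16849 elsewhere, a median log2 signal of 7.81 against 6.79 to 7.01, and a narrower spread, with an SD of 2.30 against 2.78 to 2.99. Bright probe sets, which include all 9 genes, read low on it. The 1507 probe sets with a mean signal of at least 11.64 had a median of 12.34 on this array against 12.64 to 12.71 on the others. For the brightest probe sets of the 9 genes, each difference from CCl4 livers is given below with and without this rat. Their other probe sets are given over all arrays only. For the genes around them, the list medians between CCl4 and vehicle are given both ways.

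All 9 genes had a lower mean signal in CCl4 livers than in vehicle livers. Gls2 showed the largest difference, at 51.3% of the vehicle level, followed by Asl at 68.4%, Ass1 at 71.0% and Otc at 72.2%. Glud1, at 96.8%, and Slc25a15, at 90.7%, were nearest to vehicle. None of the 9 passed the test used for a call, an adjusted p below 0.05 in limma together with at least 1.5-fold, and neither did any other probe set on the array, so that 0% of 31042 were called. Before adjustment, 2 of the 9 (Gls2 and Otc) had a limma p below 0.05 with a lower mean, against 3.72% of all probe sets. In 3 of the 9 (Otc, Ass1 and Gls2) every CCl4 rat lay below every vehicle rat, against 7.14% of all probe sets. A lower mean of any size was found for 36.8% of all probe sets. The median difference of the 9 genes was -0.40, and that of all probe sets was 0.18. Among the bright probe sets the median was -0.14 and 69.0% were lower.

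These differences were smaller without CCl4 rat 3. Then the median of the 9 genes was -0.20 and 7 of them were lower, while the bright probe sets had a median of -0.03 and 53.6% of them were lower. In bulk tissue, fewer hepatocytes and less RNA per hepatocyte cannot be told apart. The 10 myofibroblast and stellate cell markers were all higher in CCl4 livers, with a median log2 difference of 1.18, and their summed linear signal was 7674 to 13031 in vehicle rats, 19541 to 33345 in CCl4 rats and 28869 to 35544 in CCl4+Rot rats. The summed signal of the 8 hepatocyte markers was 221520 to 246484, 170185 to 243221 and 235342 to 255654 in the same order. Median log2 differences between CCl4 and vehicle were -0.37 for 10 periportal markers (4 of them among the 9 genes), -0.33 for 9 pericentral, 0.10 for 7 macrophage, 0.48 for 3 cholangiocyte and -0.14 for 5 endothelial markers detected. When CCl4 rat 3 was left out, the medians were -0.26 for the periportal, -0.05 for the pericentral, 0.14 for the macrophage, 0.60 for the cholangiocyte and -0.21 for the endothelial markers, and the 8 hepatocyte markers went from -0.15 to 0.05. The myofibroblast and stellate cell markers were then higher in 9 of 10. The part of these cell types in the results was not tested.

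**Figure D1:**
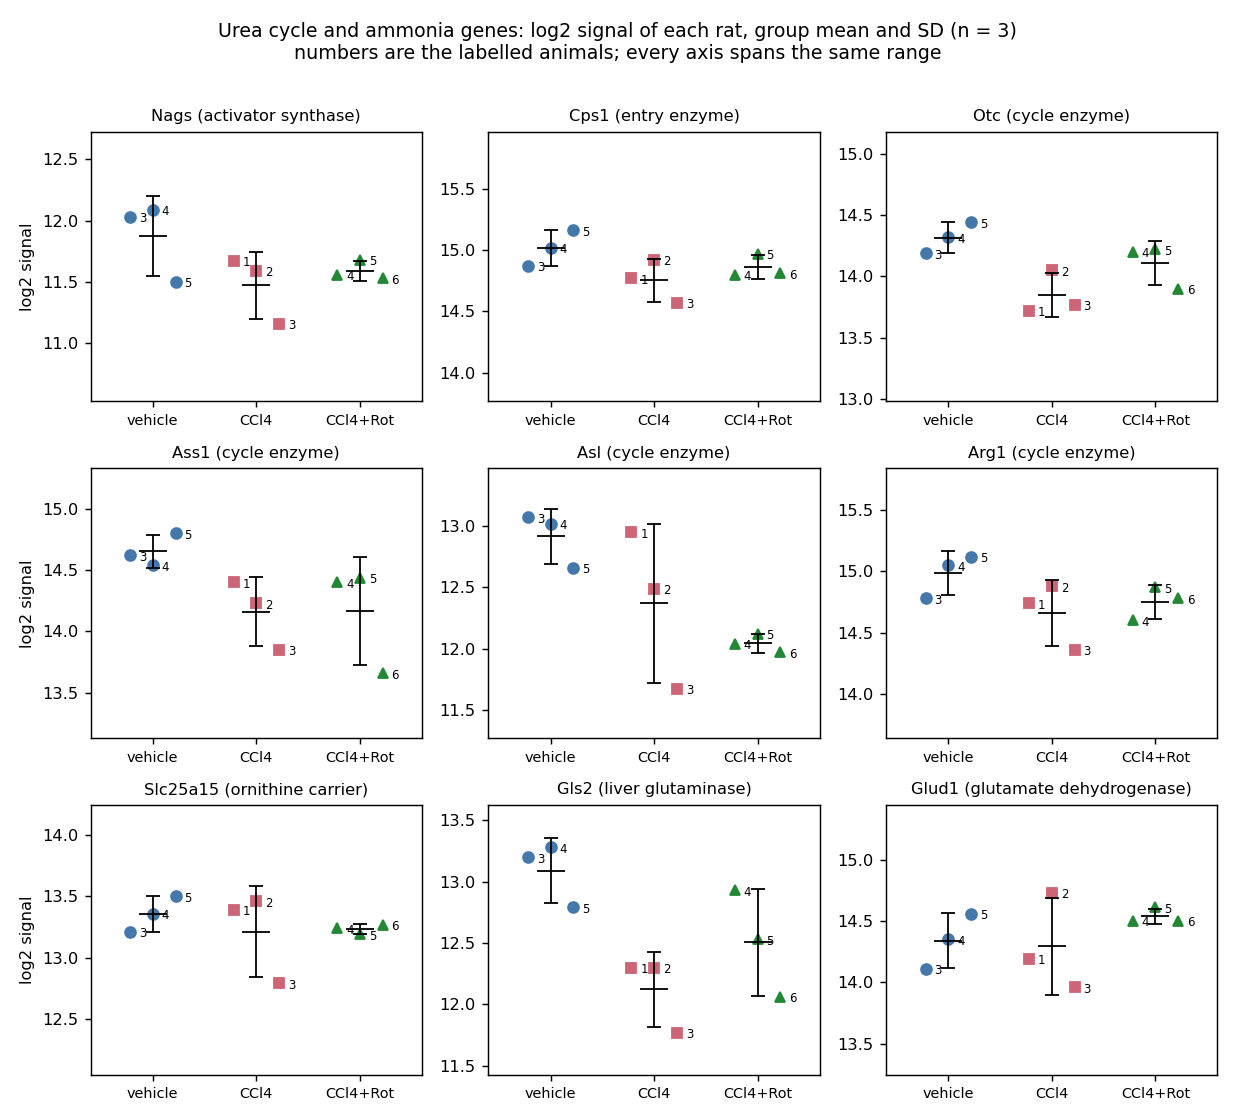
Log2 signal (vertical axes, all of the same span) of each of the 9 genes in every rat, by group (horizontal axes); numbers are the labelled animals, and bars are group means with SD (n = 3). Every CCl4 rat lies below every vehicle rat for Otc, Ass1 and Gls2, and the 3 CCl4+Rot rats lie between 11.97 and 12.12 for Asl, below all vehicle rats.

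Nags makes N-acetylglutamate, without which carbamoyl phosphate synthetase is inactive. The Nags probe set lies on chromosome 10. Its log2 signal was 12.03, 12.09 and 11.50 in vehicle rats 3, 4 and 5, 11.67, 11.59 and 11.16 in CCl4 rats 1, 2 and 3, and 11.56, 11.68 and 11.53 in CCl4+Rot rats 4, 5 and 6. Vehicle rat 5 read below CCl4 rats 1 and 2, so the groups overlapped. The difference between CCl4 and vehicle was -0.40 (SE 0.225, limma adjusted p = 0.50), and it was -0.24 without CCl4 rat 3.

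Cps1 (chromosome 9) encodes carbamoyl phosphate synthetase, the mitochondrial enzyme that fixes ammonia at the entry of the cycle. It read 14.87, 15.02 and 15.16 in vehicle rats, 14.77, 14.92 and 14.57 in CCl4 rats, and 14.80, 14.97 and 14.81 in CCl4+Rot rats. CCl4 rat 2 reached the range of the vehicle rats, and the difference was -0.26 (SE 0.168, limma adjusted p = 0.550), or -0.17 without CCl4 rat 3. A second, less bright Cps1 probe set gave a larger difference. It read 14.64, 14.69 and 14.73 in vehicle rats, 14.05, 14.36 and 13.91 in CCl4 rats, and 14.47, 14.59 and 14.27 in CCl4+Rot rats. Here the CCl4 and vehicle rats did not overlap, and the difference was -0.58 (limma adjusted p = 0.289). The probe sets of Cps1 thus differed in whether the groups overlapped, though both had lower means with CCl4.

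Otc, on the X chromosome, encodes ornithine transcarbamylase, which joins carbamoyl phosphate to ornithine to form citrulline. Its signal was 14.19, 14.32 and 14.44 in vehicle rats, 13.72, 14.05 and 13.77 in CCl4 rats, and 14.20, 14.22 and 13.90 in CCl4+Rot rats. All CCl4 rats were below all vehicle rats, and CCl4 rat 3 was not the lowest. The difference was -0.47 (SE 0.179, 95% CI -0.89 to -0.05, limma adjusted p = 0.359), and it was -0.43 without CCl4 rat 3.

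Ass1 encodes argininosuccinate synthetase, which joins citrulline to aspartate and so brings in the second nitrogen of urea. Its probe set is listed on chromosome 3, and RefSeq lists the pseudogenes Ass1-ps1 and Ass1-ps2, whose share of the signal is unknown. Vehicle rats read 14.62, 14.54 and 14.80, CCl4 rats 14.40, 14.23 and 13.85, and CCl4+Rot rats 14.40, 14.44 and 13.66. Every rat given CCl4, with or without rottlerin, was below every vehicle rat, and CCl4 rat 3 and CCl4+Rot rat 6 were the lowest. Between CCl4 and vehicle the difference was -0.49 (SE 0.263, limma adjusted p = 0.479), or -0.34 without CCl4 rat 3.

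Asl encodes argininosuccinate lyase, which releases arginine and fumarate. It read 13.07, 13.02 and 12.66 in vehicle rats, 12.95, 12.49 and 11.67 in CCl4 rats, and 12.04, 12.12 and 11.97 in CCl4+Rot rats. The CCl4 rats were widely spread (SD 0.646), with CCl4 rat 1 among the vehicle rats and CCl4 rat 3 the lowest of all 9. The difference between CCl4 and vehicle was -0.55 (SE 0.317, limma adjusted p = 0.513), and it shrank to -0.20 without CCl4 rat 3. A second Asl probe set gave -0.52 for the same comparison. The deposited table places it on chromosome 10 and the first on chromosome 12, so whether both read the same locus is uncertain.

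Arg1 (chromosome 1) encodes arginase, which splits arginine into urea and ornithine and closes the cycle. Vehicle rats read 14.78, 15.05 and 15.12, CCl4 rats 14.74, 14.88 and 14.36, and CCl4+Rot rats 14.60, 14.87 and 14.78. The groups overlapped, and the CCl4 difference of -0.32 (SE 0.199, limma adjusted p = 0.538) was -0.17 without CCl4 rat 3. Arg2, the mitochondrial arginase found mainly outside the liver, was called present on no array.

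Slc25a15 (chromosome 16) is the carrier that returns ornithine to the mitochondrion in exchange for citrulline. Its brightest probe set read 13.21, 13.36 and 13.50 in vehicle rats, 13.39, 13.46 and 12.79 in CCl4 rats, and 13.24, 13.19 and 13.27 in CCl4+Rot rats. CCl4 rats 1 and 2 lay within the vehicle range, and the sign of the CCl4 difference rested on CCl4 rat 3, being -0.14 with it and 0.07 without it. The other 4 probe sets called present gave -0.31, 0.06, -0.18 and -0.13 between CCl4 and vehicle, and the sixth was called present on no array. RefSeq lists a pseudogene, Slc25a15-ps1, which makes the source of the signal uncertain. Slc25a2, the other ornithine carrier, had no probe set with its symbol alone.

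Gls2 (chromosome 7) encodes the liver glutaminase, which releases ammonia from glutamine in periportal mitochondria. It read 13.20, 13.28 and 12.79 in vehicle rats, 12.30, 12.30 and 11.77 in CCl4 rats, and 12.93, 12.53 and 12.06 in CCl4+Rot rats. All CCl4 rats were below all vehicle rats, and CCl4+Rot rat 4 lay among the vehicle rats. This was the largest CCl4 difference of the 9 genes, -0.96 (SE 0.281, 95% CI -1.62 to -0.31), with a limma adjusted p of 0.275. It was -0.79 without CCl4 rat 3. When limma was run with a trended prior and robust estimation, its adjusted p was 0.0551 and still none of the 9 genes was called, against 1.12% of all probe sets.

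Glud1 (chromosome 16) encodes glutamate dehydrogenase, which releases or fixes ammonia at glutamate in most hepatocytes. Vehicle rats read 14.11, 14.35 and 14.56, CCl4 rats 14.19, 14.73 and 13.96, and CCl4+Rot rats 14.50, 14.61 and 14.50. The highest and the lowest value both belonged to CCl4 rats. The CCl4 difference was -0.05 (SE 0.233, 95% CI -0.59 to 0.50), and it was 0.12 without CCl4 rat 3. A second Glud1 probe set gave -0.14.

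When rottlerin was added to CCl4, the mean was higher for 8 of the 9 genes and lower for Asl. The differences were small. Among the genes with a higher mean, Gls2 had the largest difference, 0.38 (SE 0.281, 95% CI -0.27 to 1.04, limma adjusted p = 0.783), followed by Otc at 0.26 (95% CI -0.16 to 0.68) and Glud1 at 0.24 (95% CI -0.30 to 0.78). Nags differed by 0.12, Cps1 by 0.11, Arg1 by 0.09, Slc25a15 by 0.02 and Ass1 by 0.01, and Asl by -0.33 (95% CI -1.07 to 0.41). None was called, against 0.00322% of all probe sets in limma, and against 0.00322% with robust estimation. None had a limma p below 0.05 with a higher mean, against 1.97% of all probe sets. In none did the groups separate upwards, against 4.73% of all probe sets. The median of the 9 genes was 0.11, that of all probe sets -0.12 and that of the bright probe sets 0.09.

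The direction of this comparison depended on CCl4 rat 3. Without it the median of the 9 genes was -0.04, 5 of them were lower with rottlerin, and the bright probe sets had a median of -0.02. Otc (0.22), Gls2 (0.21), Glud1 (0.08) and Cps1 (0.02) kept a higher mean. Nags (-0.04), Ass1 (-0.15), Arg1 (-0.06) and Slc25a15 (-0.19) then had a lower one, and Asl was lower by 0.68 on the log2 scale. For Gls2 the CCl4+Rot rats were themselves spread: without CCl4+Rot rat 6 the difference was 0.61, and without CCl4+Rot rat 4 it was 0.17. The intervals of all 9 differences, over all arrays, included 0, which does not show that the groups were alike.

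**Figure D2:**
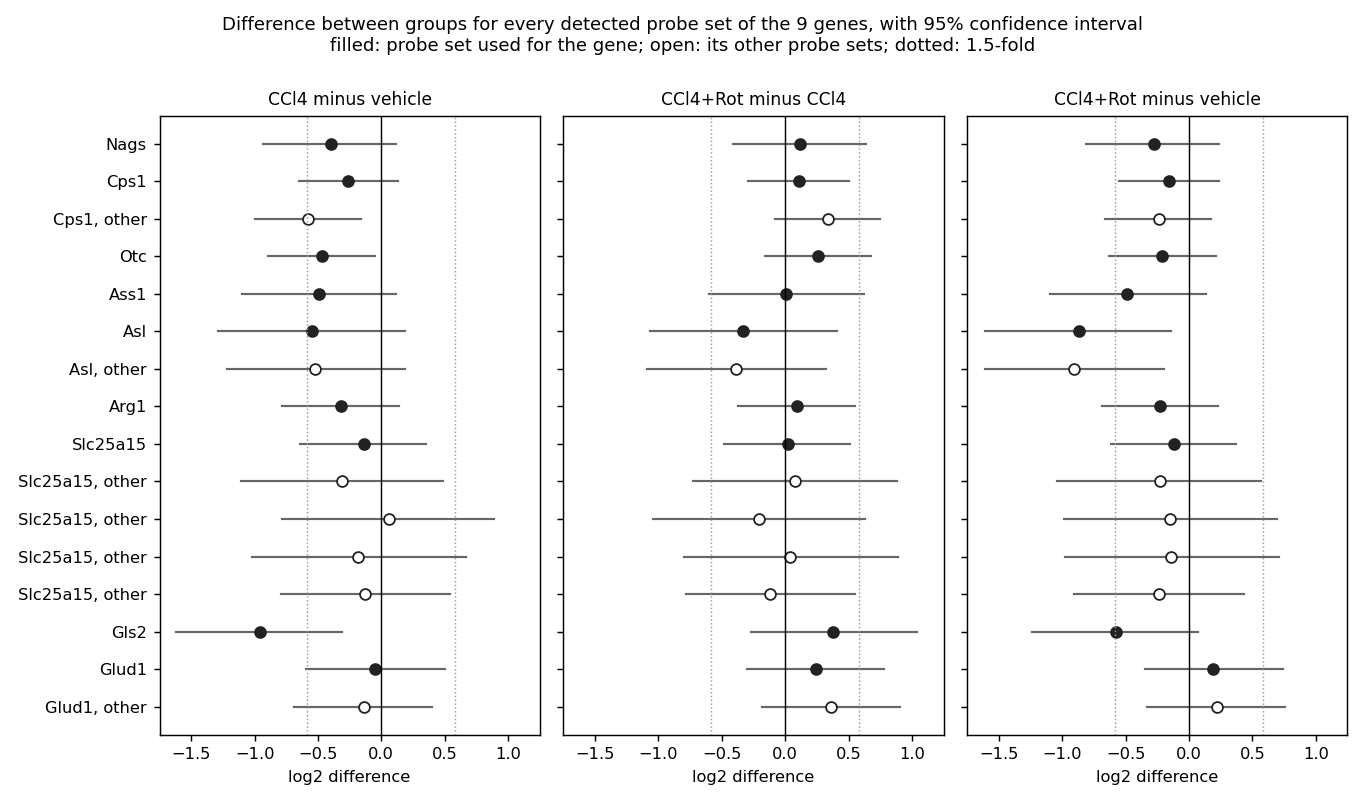
Log2 difference between groups (horizontal axes, points) with its 95% confidence interval (lines) for the 16 probe sets of the 9 genes that were called present on all arrays. Filled points are the probe sets used for a gene, open points its other probe sets, and dotted lines mark 1.5-fold; between CCl4 and vehicle all points but 1 of Slc25a15 lie left of 0, and the intervals of Otc, Gls2 and the less bright Cps1 probe set do not reach 0.

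Against vehicle, CCl4+Rot livers had a lower mean for 8 of the 9 genes, and Glud1 was higher by 0.19 (95% CI -0.35 to 0.74). Asl stood lowest, at 54.5% of the vehicle level. Its difference was -0.87 (SE 0.317, 95% CI -1.61 to -0.14), with a limma adjusted p of 0.503. The 3 CCl4+Rot rats lay close together and below all 3 vehicle rats. The second Asl probe set gave -0.91 (limma adjusted p = 0.457). Leaving out any 1 rat kept the Asl difference between -1.0 and -0.80. By its brightest probe set, Ass1 was the only other gene whose groups did not overlap, at -0.49 (SE 0.263, limma adjusted p = 0.725), and without CCl4+Rot rat 6 this was -0.23. The groups did not overlap in the less bright probe sets of Cps1 (-0.24) and Glud1 (0.22) either. Gls2 differed by -0.58 (SE 0.281, limma adjusted p = 0.675), or -0.36 without CCl4+Rot rat 6, and CCl4+Rot rat 4 lay among the vehicle rats. The remaining differences were -0.28 for Nags, -0.23 for Arg1, -0.21 for Otc, -0.16 for Cps1 and -0.12 for Slc25a15.

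No member was called between CCl4+Rot and vehicle, against 0.0258% of all probe sets, and none with robust estimation, against 0.776%. A limma p below 0.05 with a lower mean was found for 1 of the 9 (Asl), against 2.68% of all probe sets. For 2 of the 9 (Ass1 and Asl) all CCl4+Rot rats were below all vehicle rats, against 9.15%. The median of the 9 genes was -0.23, that of all probe sets 0.01 and that of the bright probe sets -0.04. The comparisons share arrays. Side by side, Gls2 was -0.96 with CCl4 and -0.58 with CCl4+Rot, both against the same vehicle rats, Otc -0.47 and -0.21, Ass1 -0.49 and -0.49, and Asl -0.55 and -0.87.

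Rat by rat, the 9 genes lay high or low together in some rats and were split in others. Each gene was centred on its own mean over the 9 arrays and the 9 were averaged. This average was 0.18, 0.29 and 0.24 in vehicle rats 3, 4 and 5, -0.03, 0.03 and -0.50 in CCl4 rats 1, 2 and 3, and -0.02, 0.03 and -0.22 in CCl4+Rot rats 4, 5 and 6. By this average all vehicle rats were above all others. All 9 genes were below their own mean in CCl4 rat 3, and 7 of 9 were in CCl4+Rot rat 6. Elsewhere the number below was 4, 1 and 1 in vehicle rats 3, 4 and 5. It was 5 and 4 in CCl4 rats 1 and 2, and 5 and 3 in CCl4+Rot rats 4 and 5. In CCl4+Rot rat 6 Ass1 was lowest, at -0.67, and the hepatocyte markers were not low, with a mean of 14.87. In CCl4 rat 3, where those markers had a mean of 14.27, Gls2 was lowest, at -0.80, and Cps1 nearest to its mean, at -0.30.

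Over the 9 arrays the 36 pairs of genes had a median Pearson correlation of 0.61, and 35 were positive. The highest was 0.96 between Cps1 and Arg1 and the lowest -0.08 between Asl and Glud1. The arrays fall into 3 groups and share the scaling of each array, so these values are a description. They include CCl4 rat 3, and no correlation without it is given here. Of 7049 other genes called present on all arrays, those closest to the average were Mtch2, an outer mitochondrial membrane protein (r = 0.989), Ndufs7, a subunit of respiratory complex I (r = 0.979), Pcf11, a factor in 3′ end formation of transcripts (r = 0.978), LOC100365089 (r = 0.978) and Cmbl, a hydrolase (r = 0.974). Their CCl4 differences from vehicle were -0.31, -0.53, -0.39, -0.47 and -0.39 in that order.

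**Figure D3:**
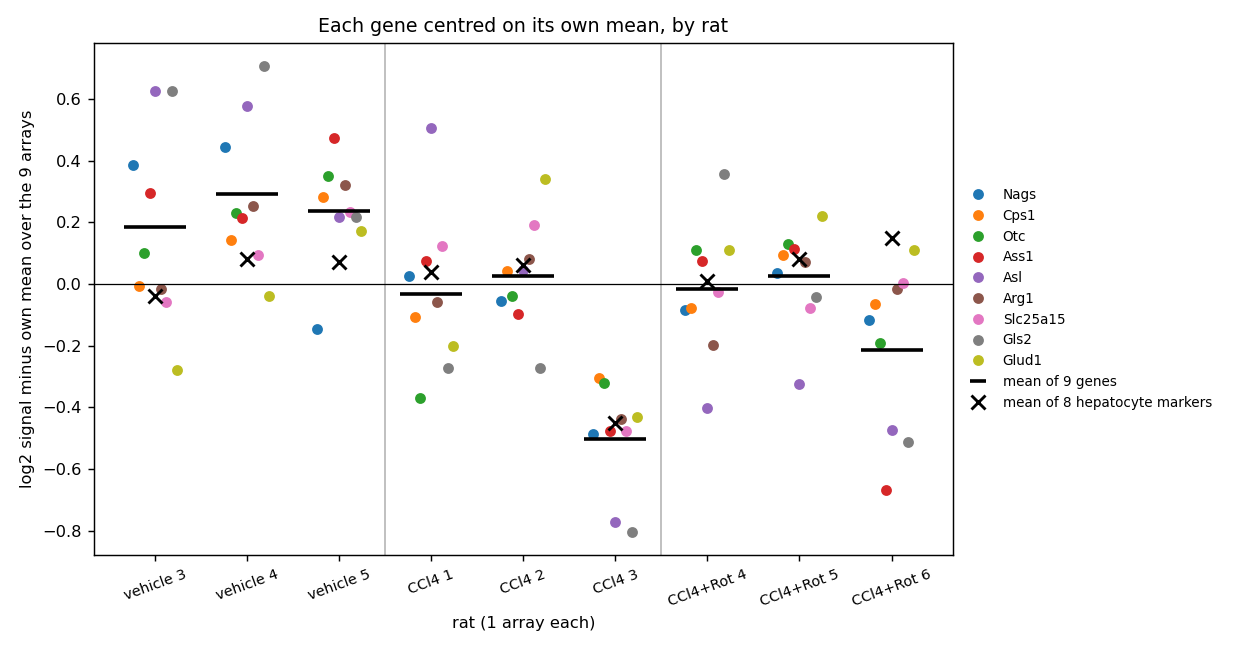
Log2 signal of each of the 9 genes minus its own mean over the 9 arrays (vertical axis), by rat (horizontal axis); coloured points are genes, thick bars the mean of the 9, and crosses the mean of 8 hepatocyte markers treated the same way. The mean of the 9 genes lies between 0.18 and 0.29 in vehicle rats and at -0.50 in CCl4 rat 3, where the crosses are low as well, whereas in CCl4+Rot rat 6 the mean is -0.22 and the cross is high.

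Other genes of the periportal zone, most of them enzymes that degrade amino acids or make glucose, had a median difference of -0.38 between CCl4 and vehicle, beside -0.40 for the 9 genes. Of 19 measured, 16 had a lower mean in CCl4 livers, beside 69.0% of the bright probe sets. In 10 every CCl4 rat lay below every vehicle rat, against 7.14% of all probe sets. A limma p below 0.05 with a lower mean was found for 5, against 3.72%. The median of the 19 was -0.18 without CCl4 rat 3, and 17 of 19 were then lower. Uroc1, the urocanase of histidine breakdown, read 13.21, 13.42 and 13.47 in vehicle rats, 12.44, 12.37 and 12.36 in CCl4 rats, and 12.91, 12.73 and 12.21 in CCl4+Rot rats. The CCl4 rats lay close together and far below the vehicle rats, CCl4 rat 3 no more than the others. The Uroc1 difference was -0.98 (SE 0.210, limma adjusted p = 0.218), and it was called only with robust estimation (adjusted p = 0.0181). Ftcd, which acts later in histidine breakdown, differed by -0.62 and Cbs, which makes cystathionine, by -0.68, with limma adjusted p of 0.269 and 0.311. Hal, which begins histidine breakdown, had the largest difference between CCl4+Rot and vehicle, -1.39 (limma adjusted p = 0.395). In that comparison 15 of 19 were lower, and 3 had a limma p below 0.05 with a lower mean, against 2.68% of all probe sets. With rottlerin over CCl4, 13 of 19 were higher, with a median of 0.15, and none had a limma p below 0.05. In the absence of CCl4 rat 3, 11 of 19 were higher and the median was 0.01. The largest values over all arrays were 1.22 for the serine dehydratase Sds, 0.42 for the cadherin Cdh1 and 0.32 for Cbs. Sds read 13.66, 13.61 and 13.61 in vehicle rats, 12.17, 12.48 and 10.26 in CCl4 rats, and 13.40, 13.50 and 11.68 in CCl4+Rot rats. CCl4+Rot rats 4 and 5 lay just below the vehicle rats and CCl4+Rot rat 6 within the CCl4 range, and CCl4 rat 3 was far below the others. Without CCl4 rat 3 the Sds difference between CCl4+Rot and CCl4 was 0.53, and those of Cdh1 and Cbs were 0.52 and 0.23.

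Carriers and enzymes that feed the cycle were also lower more often than higher with CCl4. Of 19 genes detected, 12 were lower and 7 higher, with a median of -0.39. A limma p below 0.05 was found for 4 lower and 1 higher, against 3.72% and 8.64% of all probe sets. The median was -0.26 without CCl4 rat 3. Slc38a4, an amino acid transporter of the hepatocyte membrane, read 13.91, 14.04 and 13.93 in vehicle rats, 13.56, 13.47 and 13.27 in CCl4 rats, and 13.58, 13.63 and 13.34 in CCl4+Rot rats. Both treated groups were below all vehicle rats, by 0.53 (limma adjusted p = 0.294) and 0.44 (limma adjusted p = 0.513) on the log2 scale. Gpt, alanine aminotransferase, differed by -1.40 (limma adjusted p = 0.340). Slc1a4, a neutral amino acid transporter, was the one with a higher mean, by 1.31 (limma adjusted p = 0.218), and was called present on 1 of 3 vehicle arrays and 2 of 3 CCl4 arrays. Slc25a13, the liver carrier that supplies aspartate to Ass1, read 13.50, 13.55 and 13.51 in vehicle rats, 13.14, 12.85 and 12.70 in CCl4 rats, and 13.34, 13.51 and 12.78 in CCl4+Rot rats. Its difference was -0.62 with CCl4 (limma adjusted p = 0.349) and 0.31 between CCl4+Rot and CCl4. These were -0.53 and 0.21 without CCl4 rat 3. In the comparison of CCl4+Rot with CCl4, 12 of 19 genes were higher, and the only one with a limma p below 0.05 was Slc1a4, at -0.82 (-0.67 without CCl4 rat 3). Without that rat 12 of the 19 were lower, with a median of -0.06. Against vehicle, CCl4+Rot livers had 3 lower and 1 higher at that p (2.68% and 5.63% of all probe sets), among them Slc7a2, an arginine transporter (-0.75), and carbonic anhydrase Car2 (1.14).

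Of 16 genes detected on side routes of ornithine, arginine, proline and polyamines, 9 were higher and 7 lower with CCl4. Their median was 0.14 (0.08 without CCl4 rat 3), and a limma p below 0.05 was found for 3 higher and 2 lower. For higher means, 8.64% of all probe sets passed that p, and for lower means 3.72%. Aldh18a1 makes pyrroline-5-carboxylate from glutamate for proline and ornithine. It read 6.55, 6.83 and 6.51 in vehicle rats, 7.67, 7.97 and 8.06 in CCl4 rats, and 7.82, 7.72 and 7.81 in CCl4+Rot rats. Both treated groups were well above the vehicle rats, by 1.27 (SE 0.175, limma adjusted p = 0.162) and 1.15 (SE 0.175, limma adjusted p = 0.161), and with robust estimation the first was called (adjusted p = 0.0332).

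Oat, ornithine aminotransferase, which removes ornithine and is most abundant in pericentral hepatocytes, lay in the other direction. It read 13.16, 12.61 and 12.70 in vehicle rats, 11.70, 11.62 and 11.29 in CCl4 rats, and 12.64, 13.01 and 11.67 in CCl4+Rot rats. CCl4+Rot rats 4 and 5 were within the vehicle range and rat 6 within the CCl4 range. Oat was at 41.0% of vehicle with CCl4, a difference of -1.29 (SE 0.354, limma adjusted p = 0.253, called with robust estimation at 0.0493). It was higher in CCl4+Rot than in CCl4 livers by 0.91 (limma adjusted p = 0.747), the only one of these genes with a limma p below 0.05 there. Of all probe sets, 1.97% had a higher mean at that p. Without CCl4 rat 3 these differences of Oat were -1.17 and 0.78. Against vehicle, 10 of 16 were higher in CCl4+Rot livers, 7 of them without overlap, against 11.9% of all probe sets, and 2 had a limma p below 0.05 with a higher mean, against 5.63%, Aldh18a1 among them.

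Genes that handle glutamine outside the periportal zone had a median of 0.33 between CCl4 and vehicle (0.24 without CCl4 rat 3), with 7 of 12 detected genes higher. A limma p below 0.05 was found for 4 higher and 1 lower (8.64% and 3.72% of all probe sets). Slc1a3, a glutamate transporter (1.22, limma adjusted p = 0.218), and Slc7a5, a transporter of large neutral amino acids (1.39, limma adjusted p = 0.231, called present on 1 vehicle array), were among the first. The lower one, the pericentral glutamate transporter Slc1a2, was called present on 1 of 9 arrays and is given no fold. Glul, glutamine synthetase of the pericentral rim, read 12.15, 12.74 and 12.81 in vehicle rats, 11.58, 12.63 and 11.73 in CCl4 rats, and 12.48, 12.60 and 13.21 in CCl4+Rot rats. The groups overlapped. The Glul difference was -0.58 with CCl4 (limma adjusted p = 0.529) and 0.78 between CCl4+Rot and CCl4 (limma adjusted p = 0.752). The first was -0.38 without CCl4 rat 1, -0.91 without CCl4 rat 2 and -0.46 without CCl4 rat 3. Over all arrays, the less bright Glul probe sets gave -0.46 and -0.19 with CCl4, and 0.61 and 0.41 between CCl4+Rot and CCl4. Between CCl4+Rot and CCl4 no gene of this list had a limma p below 0.05. Against vehicle 6 of 11 detected genes were higher in CCl4+Rot livers, 2 of them at that p, against 5.63% of all probe sets.

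**Figure D4:**
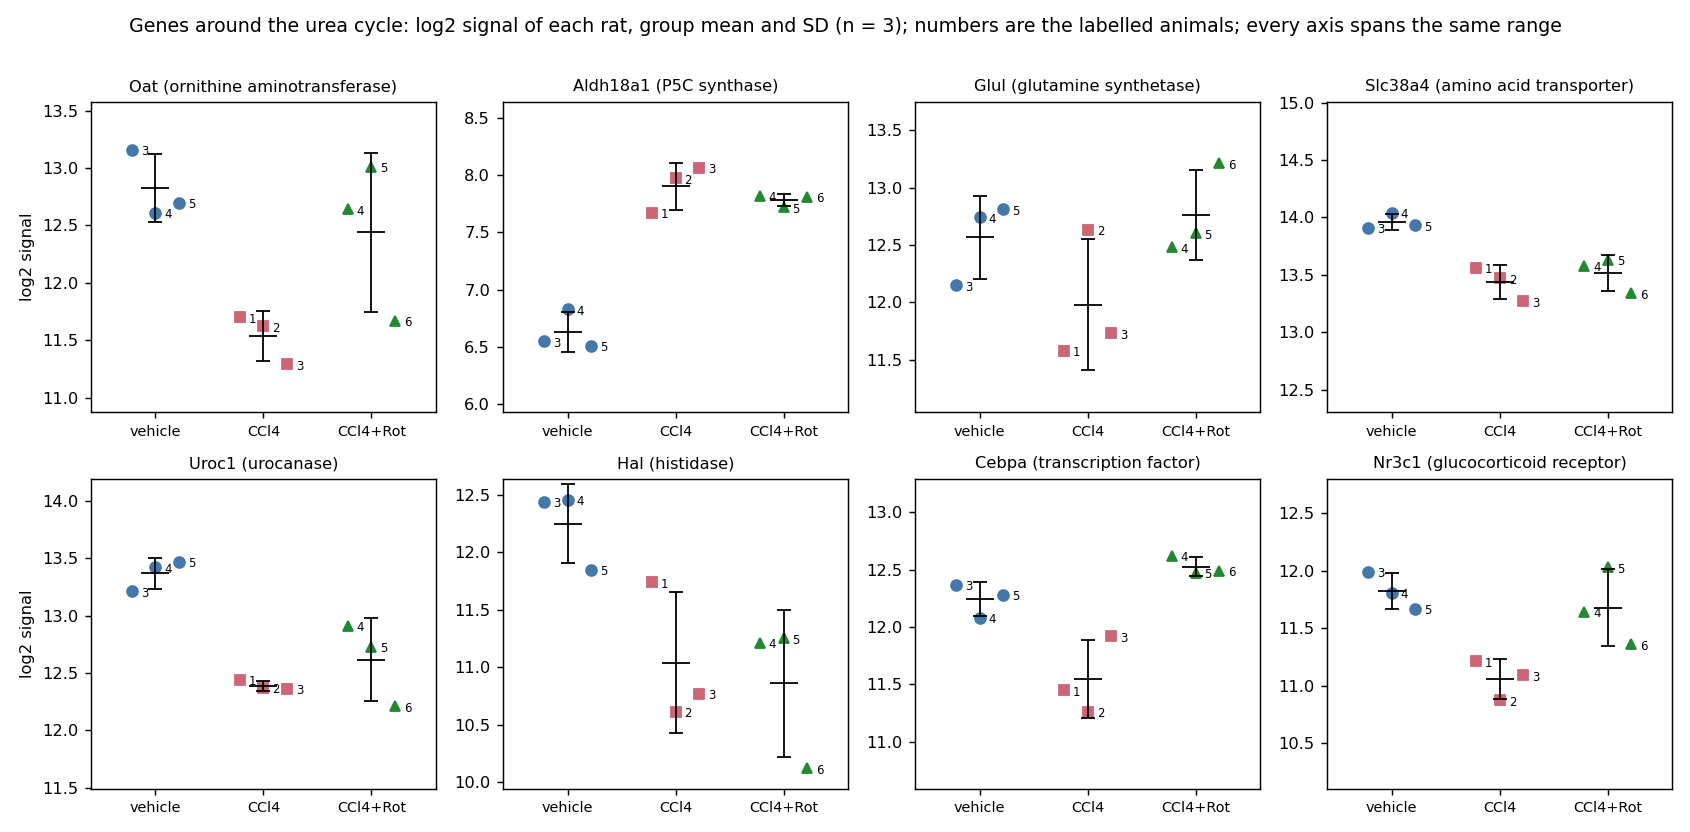
Log2 signal (vertical axes, all of the same span) of 8 genes that surround the urea cycle in every rat, by group (horizontal axes); numbers are the labelled animals, and bars are group means with SD (n = 3). Oat, Slc38a4, Uroc1, Hal, Cebpa and Nr3c1 lie lower in CCl4 than in vehicle rats without overlap, Aldh18a1 higher, and Cebpa and Nr3c1 lie above the CCl4 rats in all 3 CCl4+Rot rats.

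Of 20 detected transcription factors, receptors and other genes listed as regulators of the urea cycle genes, 14 were lower with CCl4, with a median of -0.12. The list was not sorted by direction of action. A limma p below 0.05 was found for 5, all lower, against 3.72% of all probe sets. Cebpa, the C/EBP factor of mature hepatocytes, read 12.37, 12.08 and 12.28 in vehicle rats, 11.45, 11.26 and 11.92 in CCl4 rats, and 12.62, 12.47 and 12.49 in CCl4+Rot rats. The CCl4 rats were below all others, and CCl4 rat 3 was the highest of them. Cebpa was lower by 0.70 with CCl4 (SE 0.207, limma adjusted p = 0.280) and, between CCl4+Rot and CCl4, higher by 0.98 (SE 0.207, 95% CI 0.50 to 1.46, limma adjusted p = 0.608). Without CCl4 rat 3 these were -0.89 and 1.17. The other 4 Cebpa probe sets gave -0.67, -0.68, -0.58 and -0.69 for the first comparison and 1.06, 1.07, 0.78 and 0.39 for the second.

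Nr3c1, the glucocorticoid receptor, read 11.99, 11.81 and 11.67 in vehicle rats, 11.21, 10.87 and 11.09 in CCl4 rats, and 11.64, 12.03 and 11.36 in CCl4+Rot rats. As for Cebpa, the CCl4 rats were below all others. Its differences were -0.77 (limma adjusted p = 0.261) and 0.62 (limma adjusted p = 0.724). A second, less bright Nr3c1 probe set gave -0.21 and 0.51, with overlap in both comparisons. It was called present on 1 of 3 CCl4 arrays. The insulin receptor Insr was lower by 0.85 with CCl4 (limma adjusted p = 0.290). Cebpa and Nr3c1 were the only regulators with a limma p below 0.05 between CCl4+Rot and CCl4. A higher mean at that p was found for 1.97% of all probe sets. In this comparison 13 of 20 regulators were higher, with a median of 0.16 beside -0.12 over all probe sets. Quantile normalization moved the median of all probe sets to 0.01, and the regulator median under it is not given here. Without CCl4 rat 3 the medians of the regulators were -0.12 against vehicle and 0.15 between CCl4+Rot and CCl4, and the differences of Nr3c1 were -0.78 and 0.64. Against vehicle, 1 of 18 detected regulators was at that p in CCl4+Rot livers, with a lower mean, against 2.68% of all probe sets.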

How the data were processed

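Total RNA of each liver was labelled as biotin cRNA and hybridized to an Affymetrix GeneChip rat genome array. The table the authors deposited holds, for 31099 probe sets and every array, the log2 signal and whether the transcript was called present, marginal or absent. The submitters' processing notes name MAS5 and affy, with no version. The antilogs had a common trimmed mean (500, with 2% trimmed at each end), so arrays had been scaled but not quantile normalized, and a narrow array such as CCl4 rat 3 reads low for bright probe sets. The genome build of the probe set positions is not given in the sources used here. All columns of samples were mapped.

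The deposited log2 values were used as they are. The 57 control probe sets were left out, and 31042 were fitted with limma 3.58.1 (R 4.3.3) over all 9 arrays, with 3 group means and no covariate (6 residual degrees of freedom), and Benjamini-Hochberg adjustment over all of them. A call needed an adjusted p below 0.05 and 1.5-fold, the threshold of the methods, which name no test for the arrays. With 3 arrays against 3, an exact permutation test cannot go below p = 0.1. The number of arrays limits the precision, and intervals are 95% confidence intervals of the fit. The fit was tested on simulated data with known changes.

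A gene was read by its brightest probe set with a single symbol. The members, the 5 gene lists (feeders, side routes, glutamine handling, other periportal genes, regulators) and the marker lists were chosen with earlier results of these data known. Of each list, up to 3 genes with the smallest p in each comparison were named, and Glul, Arg2 and Slc25a2 whatever their values. Some genes that this rule selects are not reported here. A gene called present in neither group was given no fold and left out of list counts. Alternatives covered scaling, filters, arrays fitted, variance model (robust estimation with statmod 1.5.0), array weights, replicate block, probe set choice, other tests and thresholds, and each array left out. Centring on the hepatocyte markers was chosen after seeing the data.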

Additional observations from a re-analysis of the deposited data

How the results depend on the processing

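No member was called in any comparison under any scaling, filter, variance model or left-out array tried (0 to 0 members). With an unadjusted p below 0.05 and 1.5-fold, limma and a t-test each called 1 member between CCl4 and vehicle (Gls2) and 1 between CCl4+Rot and vehicle (Asl). Without the fold threshold, a lower mean at that limma p was found for 3.72% and 2.68% of all probe sets. The share that also met 1.5-fold is not given here. With 1 array left out, the median of the 9 genes ran from -0.46 to -0.20 for CCl4 minus vehicle, -0.04 to 0.19 for CCl4+Rot minus CCl4, and -0.29 to -0.16 for CCl4+Rot minus vehicle. Centring on the median of all probe sets, which is raised on the array of CCl4 rat 3, moved it to -0.76 for CCl4 minus vehicle and 0.35 for CCl4+Rot minus CCl4, and centring on the hepatocyte markers moved the latter to -0.09.

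Changes of sign were limited to small differences. For CCl4 minus vehicle, Slc25a15 became 0.01 and Glud1 0.17 under quantile normalization, 0.01 and 0.11 with hepatocyte marker centring, and 0.04 and 0.23 with array weights. For CCl4+Rot minus CCl4, quantile normalization gave Cps1 -0.07, Ass1 -0.12, Arg1 -0.09 and Slc25a15 -0.06. Centring on probe sets present on all arrays gave Ass1 -0.02 and Slc25a15 -0.01. Hepatocyte marker centring gave Nags -0.08, Cps1 -0.09, Ass1 -0.19, Arg1 -0.11 and Slc25a15 -0.18, and array weights gave Ass1 -0.01, Arg1 -0.06, Slc25a15 -0.17 and Glud1 -0.02. Leaving out 1 array gave ranges that cross 0 for Slc25a15 (-0.26 to 0.07) and Glud1 (-0.26 to 0.12) in CCl4 minus vehicle, for Nags (-0.04 to 0.22), Ass1 (-0.15 to 0.26), Arg1 (-0.06 to 0.20) and Slc25a15 (-0.19 to 0.14) in CCl4+Rot minus CCl4, and for Glul (-0.03 to 0.34) in CCl4+Rot minus vehicle. The cause was not tested. Of the other genes named, Oat and Uroc1 passed the adjusted threshold only with robust estimation (CCl4 minus vehicle), and Aldh18a1 with robust estimation (CCl4 minus vehicle), with the present filter (both comparisons with vehicle) and with array weights (CCl4+Rot minus vehicle). Leaving out CCl4 rat 3 from the lists and the genes around the cycle was chosen after seeing the data. Quantile normalization moved the median of all probe sets from 0.18 to -0.02 for CCl4 minus vehicle.

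Labelled animal numbers shared by groups gave deviations that correlated by 0.02 (vehicle 3 and CCl4 3), 0.04 (vehicle 4 and CCl4+Rot 4) and 0.07 (vehicle 5 and CCl4+Rot 5) over 11231 probe sets. The labels do not say whether these rats shared more than a number, and these values cannot decide it. The replicate block, with a correlation of -0.0327, changed no call: 0 members were called in each comparison.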
